A study of Mus musculus with 35 samples.

Results

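Astrocyte-enriched cells of the hippocampus and of the cortex were compared across all genes in mice on standard chow (SC). The comparison rests on 11 of the 35 libraries of the series, taken by the region and the diet in their titles: 5 from hippocampus and 6 from cortex. The series asks how a high-fat high-sugar diet (HFHS) acts on astrocytes of different brain regions, and the SC mice are its control animals, so the comparison gives the region difference without that diet. All mice were C57BL/6JRj males, aged 8 to 9 weeks when the diet began, and they were kept on SC for 4 months. Tissue of 2 animals was pooled for each library. Another 7 hippocampus and 6 cortex libraries came from mice of the same strain, sex and age at start that were fed HFHS for the same time, and their region difference is set beside the SC result as a measurement in other animals. All libraries of the series share the fit's estimate of the spread. Cells were dissociated and collected with magnetic beads against ACSA2, a surface antigen of astrocytes that is encoded by Atp1b2. Per the labels' protocols, MS columns and standard volumes served for hippocampus, while LS columns and scaled-up volumes served for the larger number of cortex cells, so region and column cannot be told apart in any result below. Each library is its own pool of tissue, and p-values measure the spread between pools. The labels do not say whether hippocampus and cortex libraries of the same replicate number come from the same animals, and the fit treats them as unpaired.

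Astrocytes clear glutamate and potassium from synapses, hold water and ion balance at blood vessels, pass lactate and cholesterol to neurons and secrete factors that build synapses. Astrocytes of different brain regions share this core and differ in a smaller set of genes, among them transcription factors kept from the embryonic field they arose in. The hippocampus lies against the lateral ventricle, whose wall carries ciliated ependymal cells and the choroid plexus, and fibre tracts rich in oligodendrocytes run along it.

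The libraries held between 47642159 and 56363580 reads in hippocampus and between 54612169 and 63679930 reads in cortex, as estimated counts assigned to transcripts. Cortex replicate 6 stood apart. The mean length of its counted transcripts was 1922 bases, against 2624 to 2985 bases in the other SC libraries, and its mitochondrially encoded genes took 10.9% of the counts, against 1.46% to 2.93% in hippocampus and 3.39% to 5.56% in the other cortex libraries. Values below are CPM, the counts of a gene relative to library size, after TMM scaling (which assumes that most genes are alike), given for hippocampus replicates 1 to 5 in that order and for cortex as the lowest, the median and the highest of the 6 libraries. Fold changes are those of hippocampus over cortex on the log2 scale with their standard error (SE). A gene was called when its adjusted p was under 0.05.

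Of 21574 genes tested, 6636 were called (30.8%), of which 3332 were higher in hippocampus (15.4%) and 3304 were lower (15.3%). The median fold change of all genes was 0.04. Among the called genes, 2490 were higher and 2397 lower by more than 2-fold, and 1286 were higher and 702 lower by more than 4-fold. The balance between directions depends on the scaling. When libraries were scaled on 22 astrocyte markers in place of all genes, the median of all genes moved to 2.69, and 17913 genes were called higher and 72 lower. Of those 72 genes, 71 were also called lower with the scaling on all genes. Directions below hold relative to the median of all genes under both scalings, unless a sentence says otherwise, and the astrocyte-scaled values are given where they bear on astrocyte genes.

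The genes with the largest differences fell into recognisable kinds on the high side. Of the 12 genes with the largest positive fold changes among named genes at 10 CPM or more, Cfap221, Cfap44, Dnah5 and Ttc29 encode parts of motile cilia, Trp73 encodes a p53 relative needed for multiciliated cells, and Myb encodes a transcription factor that also acts in multiciliated cells. Fosb is an immediate early gene, Lmx1a a transcription factor of the cortical hem and choroid plexus, Musk a receptor kinase known from the neuromuscular junction, Krt15 a keratin, Capn6 a calpain without protease activity, and Ces1d a carboxylesterase. The groups did not overlap for 11 of the 12, Lmx1a being the exception, in a set chosen for large differences.

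Trp73 (chromosome 4, 154056253 to 154140208, minus strand, GRCm38) had 21.0, 20.9, 15.2, 29.6 and 25.8 CPM in hippocampus, against 0.154, 0.687 and 1.64 CPM in cortex. Every hippocampus library was above every cortex library, and the fold change was 4.64 ± 0.68 (SE, adjusted p = 8.92e-06). Myb (chromosome 10, 21124935 to 21160984, minus strand) had 13.6, 13.3, 21.8, 13.4 and 24.0 CPM in hippocampus and 0.306, 0.689 and 1.65 CPM in cortex. It was again low in all 6 cortex libraries, with a fold change of 4.38 ± 0.67 (SE, adjusted p = 1.85e-05). Musk had 11.7, 13.9, 16.6, 11.6 and 19.6 CPM in hippocampus and 0.407, 0.591 and 1.39 CPM in cortex, with no overlap and a fold change of 4.34 ± 0.49 (SE, adjusted p = 2.91e-07). Krt15 had 18.6, 17.3, 36, 20.8 and 26.1 CPM in hippocampus, against 0.102, 0.789 and 3.73 CPM in cortex, a fold change of 4.36 ± 0.63 (SE, adjusted p = 7.69e-06). Lmx1a was uneven within hippocampus: it had 10.5, 5.93, 1.04, 21.4 and 20.9 CPM there and 0, 0.315 and 1.42 CPM in cortex, so that hippocampus replicate 3 lay within the cortex range. Its fold change was 4.51 ± 1.0 (SE, adjusted p = 0.00097). Ces1d had the largest fold change, 5.19 ± 0.79 (SE, adjusted p = 1.49e-05), with 17.3, 9.28, 23.2, 9.85 and 19.4 CPM in hippocampus and 0, 0.408 and 0.775 CPM in cortex. It lies in a cluster of near-identical carboxylesterase genes, so its counts are uncertain for the single gene.

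On the low side, the 12 genes with the largest negative fold changes included genes known from astrocytes. Crym encodes mu-crystallin, a cytosolic protein that binds thyroid hormone, Chrdl1 a secreted BMP antagonist that astrocytes use to mature synapses, Cldn10 a claudin, Rpe65 the retinoid isomerase of the visual cycle, Sox21 a SOX transcription factor, Car8 a carbonic anhydrase-related protein and Fjx1 a secreted homologue of Drosophila four-jointed. Pdzph1, Cpne9 (a copine), Rasgef1c (a Ras exchange factor), Oaf and the long noncoding RNA Celrr complete the set. The groups did not overlap for any of the 12. Genes of both sets were chosen for large differences, which favours separate groups, and the share over all genes is not given here.

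Crym (chromosome 7, 120186380 to 120202111, minus strand) had 1.83, 3.43, 4.28, 4.47 and 6.81 CPM in hippocampus, against 55.9, 96.0 and 314 CPM in cortex. All 5 hippocampus libraries were low, and the fold change of -4.92 ± 0.55 (SE, adjusted p = 2.91e-07) was the largest negative one of the set. Chrdl1 (chromosome X, 143285674 to 143394262, minus strand) had 3.96, 45.6, 4.05, 8.67 and 7.10 CPM in hippocampus and 154, 200.4 and 358 CPM in cortex. Hippocampus replicate 2 was the highest of its group and still below every cortex library, and the fold change was -3.97 ± 0.79 (SE, adjusted p = 0.000366). Rpe65 (chromosome 3, 159599175 to 159625321, plus strand) had 0.149, 7.07, 0.772, 1.30 and 0.527 CPM in hippocampus and 25.2, 32.3 and 83.4 CPM in cortex, with the same high replicate 2 and a fold change of -4.43 ± 0.87 (SE, adjusted p = 0.000335). Cpne9 was more even within hippocampus, with 0.362, 1.57, 0.656, 0.634 and 0.818 CPM there and 8.35, 12.1 and 17.9 CPM in cortex, a fold change of -3.93 ± 0.50 (SE, adjusted p = 1.42e-06). Cldn10 (chromosome 14, 118787908 to 118875489, plus strand) had 28.3, 167, 14.9, 65.5 and 44.3 CPM in hippocampus and 323, 526 and 3134 CPM in cortex, the highest value being that of cortex replicate 6, and its fold change was -3.88 ± 0.78 (SE, adjusted p = 0.000378).

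**Figure D1:**
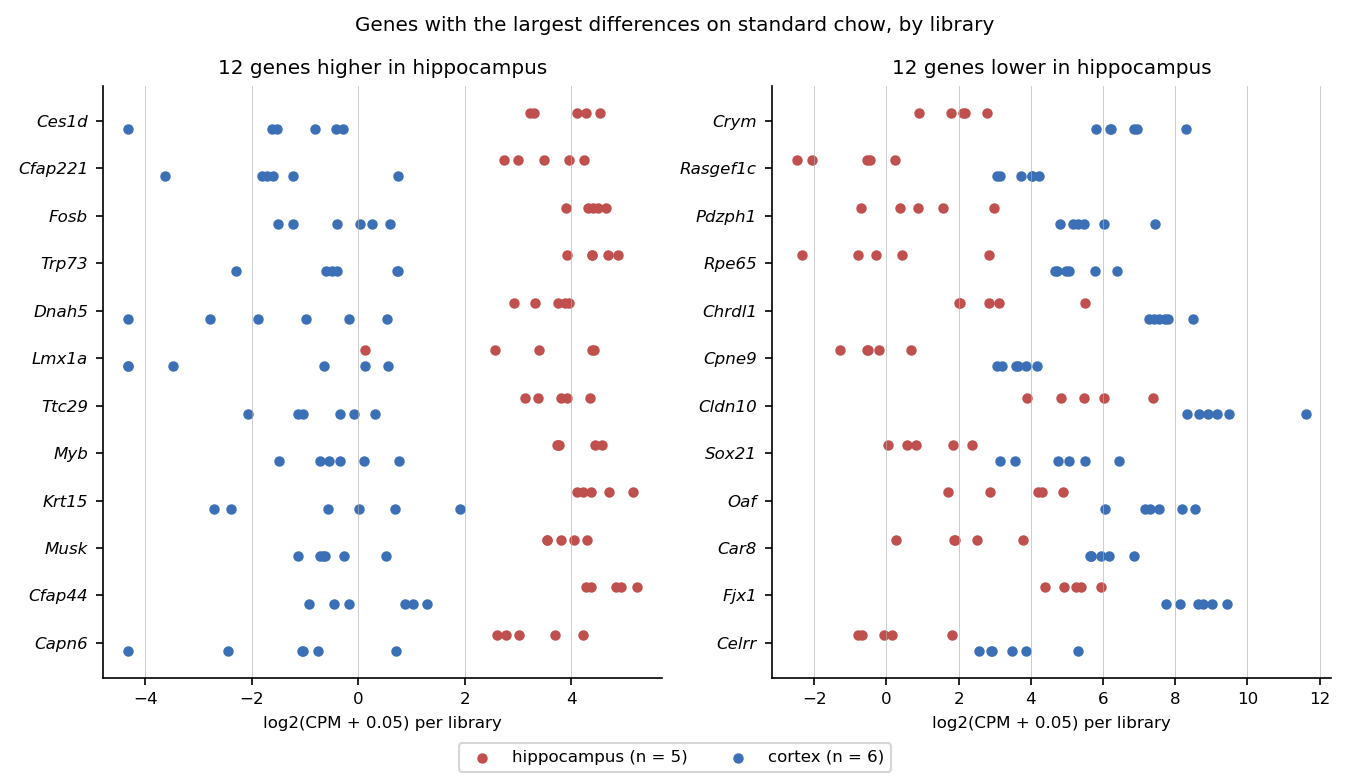
Levels per library, as log2(CPM + 0.05), of the 12 genes highest and the 12 genes lowest in hippocampus relative to cortex on SC among named genes past the threshold, with the 5 hippocampus libraries (red) above the 6 cortex libraries (blue) in each row. The groups stand apart in every row but that of Lmx1a, which the choice of genes by size favours, and points at the far left of the first panel are cortex libraries in which a gene had no count.

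Lists of cell type markers differed between the regions. Astrocyte markers were lower in hippocampus in 21 of 22 genes, with a median fold change of -2.04, and their summed level was 3985 to 20428 CPM in hippocampus and 31285 to 60247 CPM in cortex. Oligodendrocyte markers were higher in 14 of 18 genes (median 1.95), ependymal markers in 17 of 18 (median 3.22) and choroid plexus markers in 10 of 12 (median 3.55), while neuronal markers were lower in 12 of 16 (median -1.55). Over all genes 15.4% were higher and 15.3% lower, with a median of 0.04. In bulk RNA, fewer cells of a type and less RNA per cell cannot be told apart. On a scale per transcript length, the oligodendrocyte list summed to 68119 to 91698 TPM and the astrocyte list to 2570.3 to 12956 TPM in hippocampus, against 7657 to 54456 TPM and 13413 to 29049 TPM in cortex. The oligodendrocyte sum was above the astrocyte sum in all 5 hippocampus libraries and in 4 of the 6 cortex libraries, all but replicates 2 and 6, so the fractions labelled astrocytes held much oligodendrocyte RNA in both regions, and all 22 astrocyte markers were detected in every library of both regions.

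Oligodendrocytes wrap axons in myelin. Trf, the iron carrier transferrin that oligodendrocytes make, had 15707, 12526, 14471, 8091 and 8279 CPM in hippocampus, against 1728, 2123 and 4553 CPM in cortex. The groups did not overlap, and replicates 4 and 5 were the lower ones in hippocampus (fold change 2.24 ± 0.40 SE, adjusted p = 9.52e-05). Mag, a myelin adhesion protein, and Myrf, the transcription factor that switches on myelin genes, were also lower in replicates 4 and 5 than in 1 to 3. Mag had 3029, 3082, 3187, 1807 and 1520.4 CPM in hippocampus and 295, 398 and 861 CPM in cortex (fold change 2.41 ± 0.46 SE, adjusted p = 0.000249). Myrf had 314, 299.5, 319, 160 and 152 CPM in hippocampus and 20.7, 30.2 and 90.1 CPM in cortex (fold change 2.44 ± 0.61 SE, adjusted p = 0.00281). Enpp2, or autotaxin, which oligodendrocytes share with the choroid plexus, followed another order, with 15372, 10328, 4895, 29691 and 32061 CPM in hippocampus and 664, 1316 and 4454 CPM in cortex (fold change 3.30 ± 0.59 SE, adjusted p = 0.00012). The 4 members that were not called, named here after their values were seen, were Mbp, Mobp, Opalin and Ppp1r14a, with fold changes between 0.22 and 1.03. Without cortex replicate 6, Opalin and Ppp1r14a were called as well (adjusted p = 0.000878 and 0.00858). Of 10 markers of oligodendrocyte precursors, 6 were higher, among them Pdgfra, the growth factor receptor of these cells, and 3 were lower, Cspg5, Sox6 and Ptprz1, which astrocytes also express. The summed level of the 10 markers was lower in hippocampus, at 281 to 774 CPM against 1506 to 3698 CPM in cortex. Pdgfra had 21.1, 29.0, 19.3, 62.6 and 41.8 CPM in hippocampus and 0.856, 4.92 and 8.79 CPM in cortex, without overlap (fold change 2.95 ± 0.54 SE, adjusted p = 0.000147). Of 8 markers of committed precursors, 3 were higher (Enpp6, Bmp4 and Gpr17) and 3 were lower.

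Ependymal cells line the ventricles and move cerebrospinal fluid with bundles of motile cilia. Hydin, a protein of the central pair of the cilium, had 7.84, 11.9, 10.2, 16.6 and 14.2 CPM in hippocampus, against 0.656, 0.906 and 1.35 CPM in cortex (fold change 3.69 ± 0.40 SE, adjusted p = 1.73e-07). Tekt1, a filament protein of the ciliary microtubules, had 48.2, 37.2, 66.9, 68.8 and 83.0 CPM in hippocampus and 3.0, 7.60 and 12.7 CPM in cortex (fold change 3.04 ± 0.34 SE, adjusted p = 2.91e-07). Rsph1, a radial spoke protein, had 105, 65.0, 104, 99.6 and 169 CPM in hippocampus and 4.84, 10.1 and 21.7 CPM in cortex (fold change 3.29 ± 0.38 SE, adjusted p = 3.44e-07). All 3 genes were high in every hippocampus library and low in every cortex library. Cfap44 had 20.7, 19.3, 28.7, 30.7 and 37.6 CPM in hippocampus and 0.475, 1.31 and 2.41 CPM in cortex, and the dynein heavy chain gene Dnah5 had 7.54, 9.92, 14.7, 13.4 and 15.5 CPM in hippocampus and 0, 0.339 and 1.41 CPM in cortex, with fold changes of 4.32 ± 0.57 and 4.61 ± 0.62 (SE, adjusted p = 2.13e-06 and 2.9e-06). The single member that was not called was Rarres2, named after its values were seen, at 0.99 (adjusted p = 0.0785), and it was called without cortex replicate 6 (adjusted p = 0.0002). The summed level of the list was 642 to 1485 CPM in hippocampus and 62.8 to 465 CPM in cortex. Of its 18 members, Dnah5 and Dnah11 had no count in at least 1 cortex library, and all 18 were detected in every hippocampus library.

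RFX factors drive cilia genes through the X-box, whose half-site reads GTTGCC. Promoters of 300 bases, from 250 before to 50 after the start of the gene, were read from RefSeq on GRCm38.p6. Of the 15 ependymal markers with a promoter in that table, 6 held GTTGCC on either strand (Ccdc153, Cfap44, Dynlrb2, Hydin, Tekt1 and Tekt4), against 14.1% of the 27025 genes with a promoter there. Both cilia promoters below are shown because they carry that half-site, in capitals, each time as its reverse complement GGCAAC. The letters describe these windows and do not show binding.
Cfap44, chr16:44394549-44394848, plus strand: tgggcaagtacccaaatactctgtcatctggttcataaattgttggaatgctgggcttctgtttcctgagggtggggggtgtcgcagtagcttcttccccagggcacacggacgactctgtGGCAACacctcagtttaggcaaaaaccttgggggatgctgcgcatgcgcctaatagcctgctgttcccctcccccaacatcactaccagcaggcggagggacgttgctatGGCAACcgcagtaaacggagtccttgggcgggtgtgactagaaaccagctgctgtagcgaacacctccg
Hydin, chr8:110266727-110267026, plus strand: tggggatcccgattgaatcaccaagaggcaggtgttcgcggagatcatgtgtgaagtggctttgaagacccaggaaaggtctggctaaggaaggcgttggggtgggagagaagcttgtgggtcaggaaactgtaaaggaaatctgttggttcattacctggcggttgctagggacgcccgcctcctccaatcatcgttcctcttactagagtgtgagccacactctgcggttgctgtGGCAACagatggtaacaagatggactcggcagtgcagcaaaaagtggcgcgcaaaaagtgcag

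The choroid plexus makes the cerebrospinal fluid, and its markers varied most between hippocampus libraries. Otx2, a transcription factor of this epithelium, had 31.8, 21.6, 3.71, 85.9 and 101 CPM in hippocampus, against 0.475, 1.33 and 10.6 CPM in cortex. Replicates 4 and 5 were the highest and replicate 3 lay within the cortex range (fold change 3.82 ± 0.76 SE, adjusted p = 0.000374). The chloride channel protein gene Clic6 had 142, 89.2, 8.12, 383 and 396 CPM in hippocampus and 2.80, 7.06 and 60.7 CPM in cortex, with the same replicate 3 low (fold change 3.45 ± 0.80 SE, adjusted p = 0.00151). The summed level of the 12 markers was 113 CPM in hippocampus replicate 3, 3959.8 to 23471 CPM in the other 4 hippocampus libraries and 237 to 3482 CPM in cortex. Without hippocampus replicate 5, 6 of the 12 markers were called in place of 10. Lmx1a, Enpp2 and Sulf1, a sulfatase gene, were likewise lowest in replicate 3 and highest in replicates 4 and 5 of hippocampus.

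Neuronal markers were lower in hippocampus. Nefl, a neurofilament gene, had 22.1, 28.3, 35.5, 25.6 and 32.5 CPM in hippocampus and 109, 192 and 327 CPM in cortex, and Snap25, a protein of synaptic vesicle fusion, had 48.9, 62.7, 76.1, 63.0 and 77.3 CPM in hippocampus and 168, 219.6 and 314 CPM in cortex. Neither gene overlapped between regions (fold changes -2.83 ± 0.44 and -1.81 ± 0.33 SE, adjusted p = 1.94e-05 and 0.000148). Calb1, a calcium-binding protein, was higher, with 31.3, 33.7, 60.7, 37.6 and 49.5 CPM in hippocampus and 8.40, 11.4 and 17.4 CPM in cortex (fold change 1.83 ± 0.35 SE, adjusted p = 0.000229). C1ql2, a synaptic organiser of granule cells, had 2.32, 1.41, 8.38, 6.94 and 4.25 CPM in hippocampus and 0.259, 0.542 and 1.26 CPM in cortex (fold change 2.91 ± 0.65 SE, adjusted p = 0.00107). Of the 14 hippocampal neuron markers, 4 were higher (Calb1, C1ql2, Prox1 and Grik4), 1 was lower (Wfs1) and 9 were not called. Of 13 cortical neuron markers tested, none was higher and 5 were lower, led by Fezf2, which specifies deep-layer neurons, with 3.05, 11.2, 2.84, 6.23 and 4.23 CPM in hippocampus and 17.6, 26.6 and 33.7 CPM in cortex (fold change -2.29 ± 0.44 SE, adjusted p = 0.000268). The call of Wfs1 was lost without hippocampus replicate 1 or 3 (adjusted p = 0.0632 and 0.0561). Without cortex replicate 6, 1 cortical neuron marker was higher. Among 15 stem cell and neuroblast markers, 2 were higher (Cd24a and Igfbpl1) and 4 were lower, led by Dlx2. These are 13.3% and 26.7% of that list, beside 15.4% and 15.3% of all genes.

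Vascular and immune markers gave few calls. None of 15 microglia markers and none of 8 perivascular macrophage markers was called, and their summed levels overlapped between regions, at 541 to 966 CPM in hippocampus and 199 to 1536 CPM in cortex for microglia. Of 16 endothelial markers, the lone call was Slco1c1, a thyroid hormone transporter that astrocytes share, at -1.01 ± 0.39 (SE, adjusted p = 0.0445), and it was lost without hippocampus replicate 1, 2 or 3 or cortex replicate 1, 2, 4 or 5 (adjusted p between 0.0573 and 0.108). Without cortex replicate 2 or 3, 2 and 4 endothelial markers were lower. Mural cell genes were higher in 4 of 12 members, with 1 lower without cortex replicate 3, and genes of fibroblasts and meninges were higher in 5 of 10 (median 1.03). Kcnj8, a subunit of the potassium channel of pericytes, had 46.7, 63.9, 97.9, 40.0 and 74.4 CPM in hippocampus, against 7.04, 12.9 and 20.8 CPM in cortex, without overlap (fold change 2.28 ± 0.40 SE, adjusted p = 8.79e-05). Its partner subunit Abcc9 had 10.8, 61.7, 37.8, 25.0 and 30.3 CPM in hippocampus and 2.53, 5.15 and 6.85 CPM in cortex (fold change 2.77 ± 0.56 SE, adjusted p = 0.000409).

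**Figure D2:**
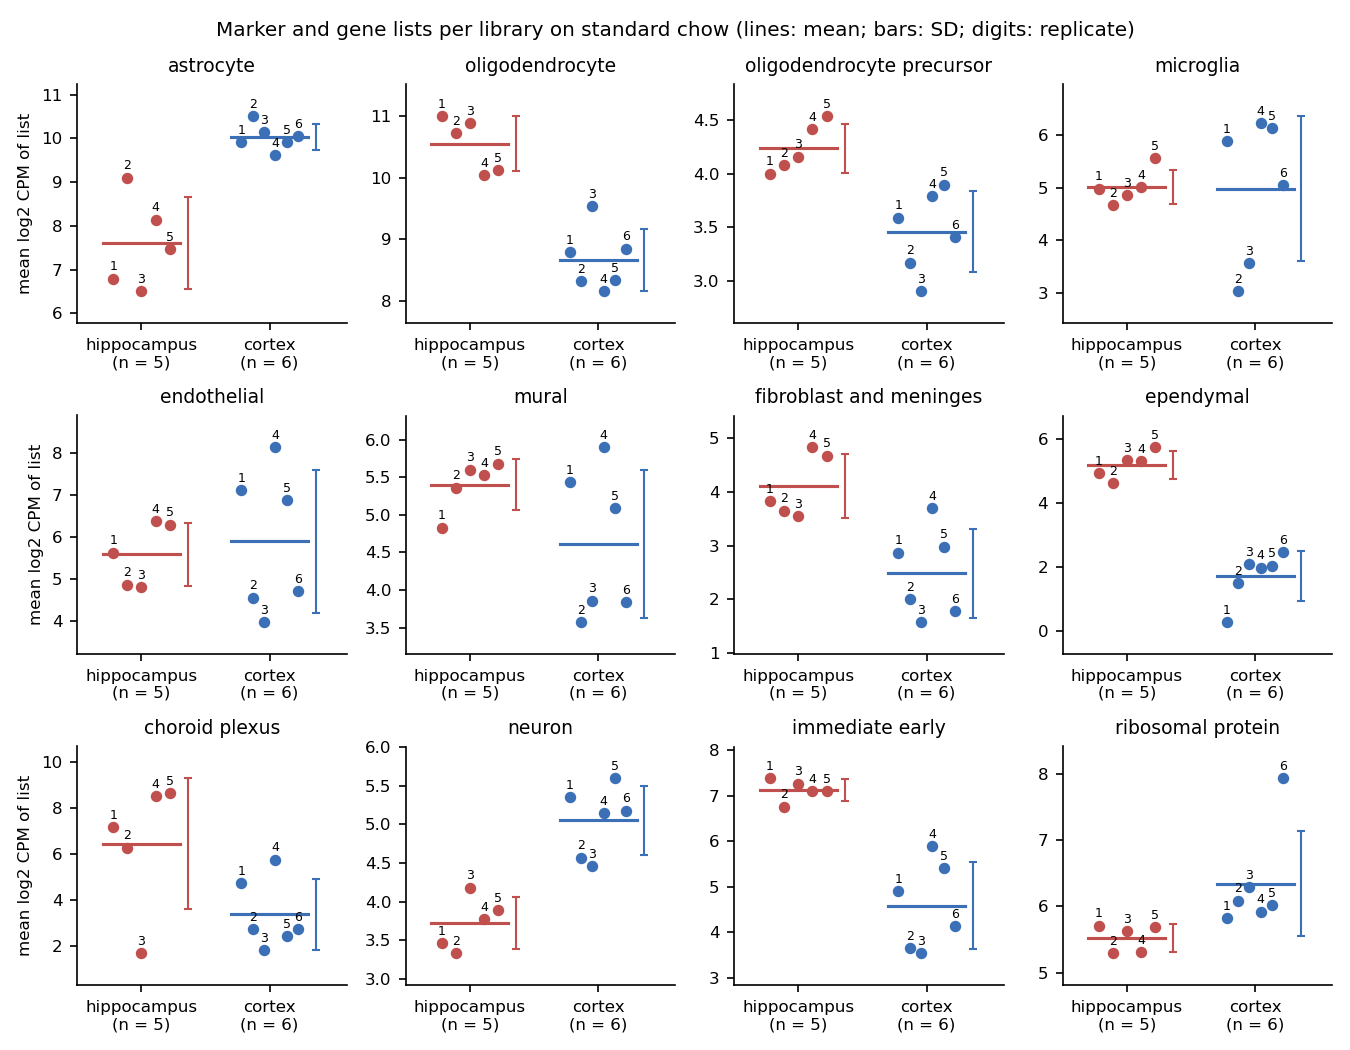
Mean log2 CPM of 12 gene lists in each SC library, hippocampus (red, n = 5) left of cortex (blue, n = 6), with the mean as a line, the SD as a bar and the replicate number beside each point. Astrocyte markers are lower in all hippocampus libraries, ependymal and immediate early genes are higher in all of them, and hippocampus replicate 3 is low for choroid plexus genes while cortex replicate 6 is high for ribosomal protein genes.

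Within the astrocyte list, most genes moved together. Slc1a2, the main glutamate transporter of the forebrain, had 209, 1579, 251, 899 and 454 CPM in hippocampus, against 2827, 3847 and 6328 CPM in cortex. The groups did not overlap, and replicates 2 and 4 were the highest in hippocampus (fold change -2.62 ± 0.57 SE, adjusted p = 0.000839). Atp1b2, the sort antigen, had 147, 549, 136, 270.5 and 245 CPM in hippocampus and 567, 1172 and 1408 CPM in cortex (fold change -1.99 ± 0.52 SE, adjusted p = 0.00405). Aqp4, the water channel of astrocyte endfeet, had 100.3, 375, 94.3, 179 and 132 CPM in hippocampus and 444, 654 and 1060.4 CPM in cortex (fold change -1.96 ± 0.44 SE, adjusted p = 0.00124). These genes shared the order of hippocampus replicates, with 2 first and 4 next. Slc1a3 and Aldh1l1, a glutamate transporter and a folate enzyme used as astrocyte markers, were lower by similar amounts (fold changes -2.32 ± 0.57 and -2.29 ± 0.55 SE, adjusted p = 0.00238 and 0.00217), and Aldh1l1 overlapped between regions. Gfap, the intermediate filament of astrocytes, was the exception. It had 207, 844, 292, 579.6 and 306 CPM in hippocampus and 139.6, 401 and 874 CPM in cortex, with broad overlap and a fold change of -0.11 ± 0.46 (SE, adjusted p = 0.879).

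Scaling on the 22 astrocyte markers sets astrocyte genes beside each other. On that scale, Slc1a2, Slc1a3, Aqp4 and Atp1b2 had fold changes of -0.57, -0.30, 0.33 and 0.27, and none of the 4 was called. These 4 genes and Gfap are among the 22 markers that set the scale. Small values of the markers as a set therefore follow from the scaling and are not a result. Gfap was at 2.23 (adjusted p = 7.09e-06), higher than these 4 genes but below the 2.69 of the median gene, on a scale where 17913 of 21574 genes were called higher. Of the 12 genes with the largest negative fold changes, 9 were still called lower: Rpe65 at -2.70, Pdzph1 at -2.53, Crym at -2.26, Chrdl1 at -2.11, Rasgef1c at -2.04, Cldn10 at -1.87, Cpne9 at -1.61, Car8 at -1.42 and Celrr at -1.34 (adjusted p between 1.28e-05 and 0.0135). Sox21, Oaf and Fjx1 were not called on that scale (fold changes -0.81, -0.71 and -0.83). Beside these values, 18 of 18 oligodendrocyte, 18 of 18 ependymal and 12 of 12 choroid plexus markers were higher on this scale, as were 8 of 16 neuronal and 7 of 16 endothelial markers, and the part that oligodendrocyte, ependymal and choroid plexus RNA has in any such gene was not tested.

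**Figure D3:**
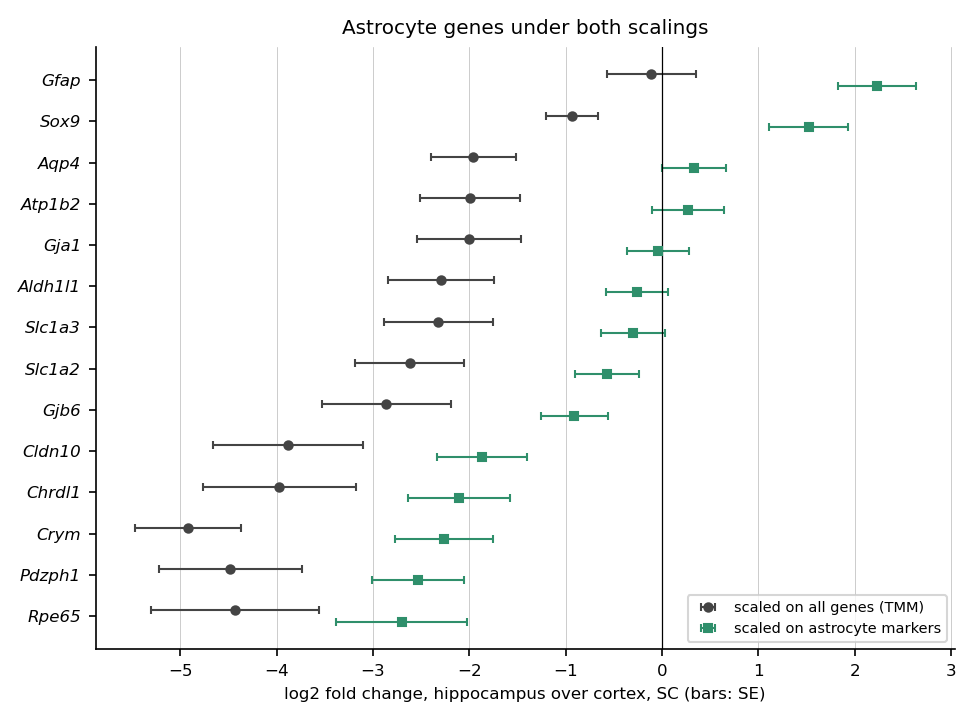
Log2 fold change of hippocampus over cortex on SC, with SE bars, for 14 astrocyte genes under scaling on all genes (grey circles) and on 22 astrocyte markers (green squares). Gfap stands at -0.11 and 2.23, Aqp4, Atp1b2 and Slc1a3 lie near 0 on the astrocyte scale, and Cldn10, Chrdl1, Crym, Pdzph1 and Rpe65 stay below 0 on both. Gfap, Aqp4, Atp1b2 and Slc1a3 are among the markers that set the astrocyte scale, which holds the markers as a set near 0.

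The functional groups of astrocyte genes differed in how uniform they were. Of 21 genes for ion, water and junction functions, 15 were lower and none was higher (median -1.82). Without cortex replicate 6, 1 member was higher. Mlc1, a membrane protein of astrocyte endfeet, had 282, 886, 336, 473 and 428 CPM in hippocampus and 1307, 1728 and 3202 CPM in cortex (fold change -1.98 ± 0.35 SE, adjusted p = 0.000117). It was lower in all 5 hippocampus libraries than in any cortex library. Of 17 genes for glutamate, GABA and glycine handling, 10 were lower and 2 were higher (median -1.24). Glul, the glutamine synthetase gene, had 558, 1178, 483, 687 and 460.4 CPM in hippocampus and 1232, 1704 and 4544 CPM in cortex (fold change -1.69 ± 0.34 SE, adjusted p = 0.000361). Slc38a1, a glutamine transporter gene, ran the other way with 67.8, 71.0, 92.8, 109 and 117 CPM in hippocampus and 20.5, 24.9 and 31.5 CPM in cortex (fold change 1.87 ± 0.24 SE, adjusted p = 1.22e-06). The glycine transporter gene Slc6a9 had 607, 525, 546, 278 and 276 CPM in hippocampus and 34.8, 161 and 249 CPM in cortex (fold change 1.48 ± 0.49 SE, adjusted p = 0.0219), and its call was lost without hippocampus replicate 1 or cortex replicate 6 (adjusted p = 0.0544 and 0.0506). Like the myelin genes, Slc6a9 was lower in hippocampus replicates 4 and 5 than in 1 to 3. With Slc6a9 missing, 1 member of the list was higher. With scaling on astrocyte markers, 9 of the 21 ion, water and junction genes were higher and 1 lower (median 0.5). On that scale, 10 of the 17 transport genes were higher and 1 lower (median 1.26), where all genes had a median of 2.69.

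Of 30 secreted and synapse-building genes tested, 17 were lower and 3 were higher (median -1.19). Sparcl1, or hevin, which promotes synapse formation, had 804, 3851, 732, 1860.3 and 1265 CPM in hippocampus and 7389, 8005 and 12397 CPM in cortex (fold change -2.35 ± 0.47 SE, adjusted p = 0.00034). Ncan, a proteoglycan of the matrix around synapses, had 19.4, 98.6, 16.6, 57.8 and 32.8 CPM in hippocampus and 157, 258 and 426 CPM in cortex (fold change -2.57 ± 0.52 SE, adjusted p = 0.000442). The growth factor gene Ptn had 506, 690, 569.8, 447 and 429 CPM in hippocampus and 1087, 1502 and 4615 CPM in cortex (fold change -1.89 ± 0.32 SE, adjusted p = 7.12e-05). None of the 3 overlapped between regions. The 3 genes that were higher were Il33, a cytokine of glia that tunes synapse number, and the thrombospondin genes Thbs1 and Thbs2. Il33 had 1726, 1829, 1699, 898 and 959 CPM in hippocampus and 435, 624 and 958 CPM in cortex (fold change 1.12 ± 0.28 SE, adjusted p = 0.00275). Thbs1 had 4.31, 5.95, 1.91, 20.8 and 12.9 CPM in hippocampus and 0.114, 1.07 and 2.30 CPM in cortex (fold change 3.03 ± 0.87 SE, adjusted p = 0.0081). Il33 overlapped between regions in hippocampus replicate 4 and Thbs1 in replicate 3, and the call of Thbs2 (1.36 ± 0.43 SE, adjusted p = 0.0171) was lost without hippocampus replicate 4 (adjusted p = 0.0863). Like the myelin genes, Il33 was lower in hippocampus replicates 4 and 5 than in 1 to 3. Thbs1 was lowest in replicate 3 and highest in 4 and 5, as the choroid plexus markers were. The part of oligodendrocyte and choroid plexus RNA in these genes was not tested. Of 29 genes that differ between astrocytes of different regions in earlier work, 15 were lower and 2 were higher (median -1.31), and 1 was higher without hippocampus replicate 1 or cortex replicate 6. Lypd6, a modulator of Wnt and nicotinic receptors, had 14.9, 44.8, 20.1, 19.5 and 15.1 CPM in hippocampus and 64.7, 105 and 183 CPM in cortex, and Mfge8, a bridge for phagocytosis, had 384, 1274, 265, 819 and 611 CPM in hippocampus and 2706, 3606 and 4639 CPM in cortex. Both were lower without overlap (fold changes -2.29 ± 0.35 and -2.44 ± 0.42 SE, adjusted p = 1.5e-05 and 7.54e-05). With scaling on astrocyte markers, 16 of the 30 secreted and synapse-building genes were higher and 2 lower (median 1.16). On that scale, 15 of the 29 regional genes were higher and 3 lower (median 1.12), where all genes had a median of 2.69.

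Receptor genes followed the astrocyte list. Of 30 neurotransmitter and peptide receptor genes, 17 were lower and 2 were higher (median -1.38). Gabbr2, a subunit of the GABA-B receptor, had 2.58, 12.5, 5.54, 4.63 and 3.05 CPM in hippocampus and 29.3, 40.1 and 68.5 CPM in cortex (fold change -2.99 ± 0.45 SE, adjusted p = 1.16e-05), and the neurotensin receptor gene Ntsr2 had 104, 594, 56.3, 294 and 141 CPM in hippocampus and 1092, 1577 and 3605 CPM in cortex (fold change -2.97 ± 0.64 SE, adjusted p = 0.000738). Those higher in hippocampus were Gria4, an AMPA receptor subunit gene, with 29.3, 51.1, 38.5, 28.6 and 23.2 CPM in hippocampus and 4.69, 8.45 and 10.5 CPM in cortex, and the purine receptor gene P2rx7, with 44.8, 47.7, 42.1, 26.0 and 24.5 CPM in hippocampus and 13.1, 14.8 and 19.6 CPM in cortex. Neither overlapped between regions (fold changes 2.09 ± 0.35 and 1.28 ± 0.30 SE, adjusted p = 6.11e-05 and 0.00146). Both were lower in hippocampus replicates 4 and 5 than in 1 to 3, as the myelin genes were, and the part of oligodendrocyte RNA was not tested. With scaling on astrocyte markers, 16 of the 30 receptor genes were higher and 3 lower (median 1.22), where all genes had a median of 2.69.

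Genes known as markers of reactive astrocytes gave 5 higher and 3 lower of 23, with a median of 0.11, close to that of all genes. C3, a complement component, had 13.6, 19.1, 22.2, 16.2 and 22.9 CPM in hippocampus and 0.185, 0.973 and 1.78 CPM in cortex, and Cd109 had 7.03, 17.5, 17.5, 14.6 and 19.1 CPM in hippocampus and 0.277, 0.891 and 2.40 CPM in cortex. Both were high in all hippocampus libraries (fold changes 4.23 ± 0.65 and 3.84 ± 0.65 SE, adjusted p = 1.62e-05 and 5.98e-05). S1pr3, a receptor for sphingosine phosphate, was higher as well (2.14 ± 0.47 SE, adjusted p = 0.000873). The call of Cd44 was lost without hippocampus replicate 3 (adjusted p = 0.0508), and that of Serpina3n without any of hippocampus replicates 1 to 3 or cortex replicates 1, 2, 3, 5 and 6 (adjusted p up to 0.108). Of the lower members, S100a10 was lost without cortex replicate 6 (adjusted p = 0.218), Ptx3 without hippocampus replicate 3, 4 or 5 or cortex replicate 6 (up to 0.136), and Psmb8 without hippocampus replicate 1, 2 or 3 or cortex replicate 4, 5 or 6 (up to 0.129). Without hippocampus replicate 3, 3 members were higher and 1 was lower, and without cortex replicate 6 none was lower.

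Transcription factors that mark embryonic fields separated the regions in both directions. Of 16 telencephalon factors, 9 were lower and 2 were higher (median -1.56), and of 18 factors of the diencephalon, the hindbrain and the dorsal midline, 7 were higher and 1 was lower (median 1.53). With scaling on astrocyte markers, 7 of the 16 telencephalon factors were higher and 0 lower (median 1.14). On that scale, 15 of the 18 other factors were higher and 0 lower (median 3.56), where all genes had a median of 2.69. Lhx2, a selector gene of the cortical field (chromosome 2, 38339281 to 38369733, plus strand), had 18.3, 35.4, 22.5, 20.6 and 26.7 CPM in hippocampus and 153, 193 and 278 CPM in cortex (fold change -3.04 ± 0.52 SE, adjusted p = 7.34e-05). The regions did not overlap. Sox21 had 5.14, 1.71, 1.45, 0.976 and 3.56 CPM in hippocampus and 8.84, 30.0 and 87.6 CPM in cortex, Nr2f1 had 6.35, 6.92, 8.12, 6.29 and 6.78 CPM in hippocampus and 14.7, 20.6 and 85.4 CPM in cortex, and Pax6 had 6.20, 17.3, 9.09, 9.43 and 10.9 CPM in hippocampus and 22.4, 31.4 and 45.7 CPM in cortex. These were also lower without overlap (fold changes -3.79 ± 0.77, -2.15 ± 0.43 and -1.64 ± 0.34 SE, adjusted p = 0.000425, 0.000371 and 0.000582).

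Dmrt3 and Emx1, which pattern the medial pallium that forms the hippocampus, were the telencephalon factors that were higher. Dmrt3 (chromosome 19, 25610301 to 25623921, plus strand) had 6.52, 2.05, 6.77, 3.09 and 17.3 CPM in hippocampus and 0, 0.438 and 1.23 CPM in cortex, and Emx1 had 2.81, 1.78, 2.26, 2.89 and 2.22 CPM in hippocampus and 0.696, 0.990 and 1.69 CPM in cortex. The regions did not overlap for either gene (fold changes 3.77 ± 1.15 and 1.21 ± 0.38 SE, adjusted p = 0.0124 and 0.0143). Zic4, a zinc-finger factor of the dorsal midline and the choroid plexus, had 9.93, 6.39, 12.9, 11.7 and 16.6 CPM in hippocampus and 1.24, 3.05 and 4.64 CPM in cortex (fold change 1.95 ± 0.33 SE, adjusted p = 7.17e-05). Irx5 and Irx3, factors of more caudal fields, were higher at fold changes of 2.37 ± 0.54 and 1.98 ± 0.47 (SE, adjusted p = 0.00129 and 0.00199) and did not exceed 3.82 CPM in any SC library. The lower member Zic5 (-0.88 ± 0.31 SE, adjusted p = 0.0306) lost its call without hippocampus replicate 2, 3 or 4 or cortex replicate 1 or 2 (adjusted p between 0.0526 and 0.0884), and no member was then lower. Among 22 factors of glial lineages, 8 were not called, 8 were lower, led by Hes5 (fold change -3.20 ± 0.58 SE), Id2 (-2.83 ± 0.53 SE) and Nfib (-0.80 ± 0.15 SE), which astrocytes use, and 6 were higher, among them the oligodendrocyte factors Myrf, Sox10 (2.35 ± 0.61 SE) and Nkx6-2 (1.52 ± 0.42 SE), with adjusted p between 0.000134 and 0.00652. With scaling on astrocyte markers, 16 of these 22 factors were higher and 1 lower (median 2.28), where all genes had a median of 2.69.

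Immediate early genes were higher in hippocampus in 16 of 20 members, with a median of 2.32. These genes respond within minutes to signals through cAMP and MAP kinases, and they are also known to respond to tissue dissociation, and the part of the dissociation step in their level was not tested. Fos (chromosome 12, 85473890 to 85477273, plus strand) had 1261, 1231, 1428, 1243 and 991 CPM in hippocampus, against 32.0, 89.7 and 204 CPM in cortex (fold change 3.56 ± 0.40 SE, adjusted p = 3.03e-07). Fosb had 22.6, 14.9, 25.2, 19.9 and 21.2 CPM in hippocampus and 0.304, 0.837 and 1.46 CPM in cortex (fold change 4.65 ± 0.43 SE, adjusted p = 4.45e-08). Both were even within hippocampus and far apart from cortex. Egr1 had 635, 563, 575, 552 and 485 CPM in hippocampus and 34.2, 54.1 and 124 CPM in cortex, Jun had 616, 566, 579, 555 and 415 CPM in hippocampus and 64.3, 102 and 161 CPM in cortex, and Atf3 had 108, 63.7, 78.9, 116 and 121 CPM in hippocampus and 2.55, 10.8 and 20.3 CPM in cortex. None of the 3 overlapped between regions (fold changes 3.02 ± 0.35, 2.31 ± 0.29 and 3.12 ± 0.42 SE, adjusted p = 3.86e-07, 8.22e-07 and 3.12e-06). In cortex, replicates 2 and 3 had the lowest mean level of the list and replicate 4 the highest. Endothelial and microglia markers were also higher in cortex replicates 1, 4 and 5 than in 2, 3 and 6. The summed endothelial level was 857 to 2510.1 CPM in hippocampus and 1021 to 7751 CPM in cortex, and the part of these cells was not tested. The members that were not called were Jund, Ier3, Klf6 and Klf4, named after their values were seen, with fold changes between 0.32 and 0.91, and without cortex replicate 4 Ier3 was called as well (adjusted p = 0.00232).

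The transcription factor CREB acts through the cAMP response element, whose half-site reads TGACG and whose full form reads TGACGTCA. Of 18 immediate early genes with a promoter in the RefSeq table, 9 held TGACG on either strand (Atf3, Btg2, Dusp1, Egr2, Fos, Fosb, Junb, Klf4 and Nr4a1), against 23% of all genes there, and 2 held TGACGTCA (Btg2 and Dusp1), against 2.03%. The full element contains the half-site on both strands. The promoters of Fosb, the member with the largest fold change, and of Dusp1, a phosphatase that turns off MAP kinases and a member with the full element, are shown with each half-site in capitals. As above, the letters describe the window and do not show that the factor acts there.
Fosb, chr7:19309996-19310295, minus strand: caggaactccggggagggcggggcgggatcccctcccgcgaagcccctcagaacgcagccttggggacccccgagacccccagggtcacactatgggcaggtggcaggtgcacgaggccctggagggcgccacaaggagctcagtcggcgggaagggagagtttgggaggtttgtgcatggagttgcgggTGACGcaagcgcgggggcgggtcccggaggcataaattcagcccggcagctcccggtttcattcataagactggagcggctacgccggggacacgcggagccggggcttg
Dusp1, chr17:26508423-26508722, minus strand: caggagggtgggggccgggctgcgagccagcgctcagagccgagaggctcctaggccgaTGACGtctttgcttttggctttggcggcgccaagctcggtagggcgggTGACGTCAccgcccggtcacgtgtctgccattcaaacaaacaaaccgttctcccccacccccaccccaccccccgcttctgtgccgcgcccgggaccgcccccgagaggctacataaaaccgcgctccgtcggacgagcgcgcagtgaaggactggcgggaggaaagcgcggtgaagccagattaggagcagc

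**Figure D4:**
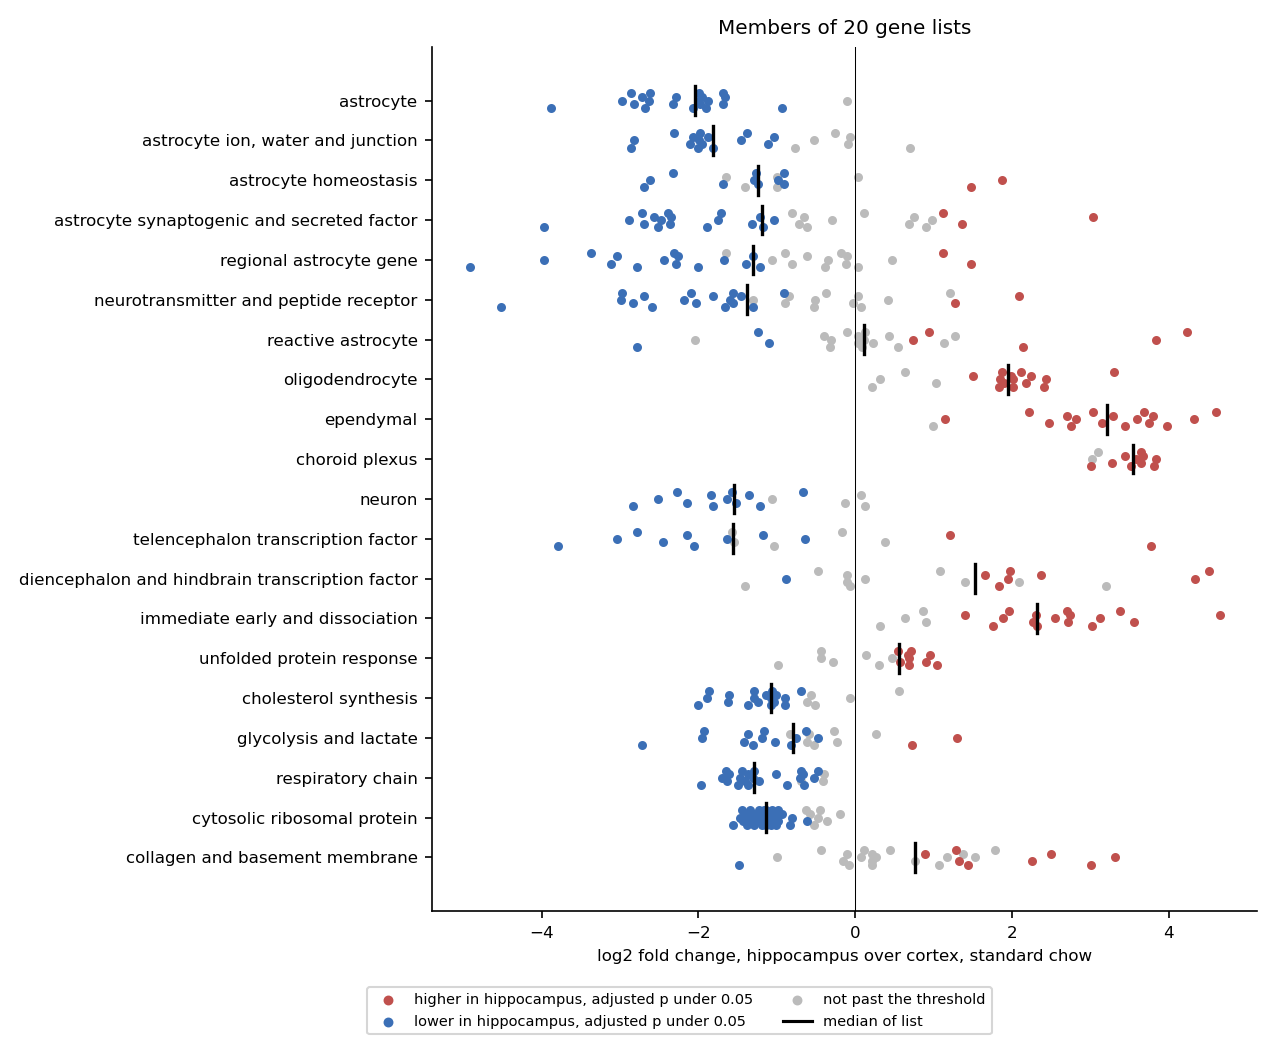
Log2 fold change of hippocampus over cortex on SC for each tested member of 20 gene lists, with calls at an adjusted p under 0.05 in red (higher) and blue (lower), other members in grey and the list median as a black bar. Medians run from -2.04 for astrocyte genes to 3.55 for choroid plexus genes, and under scaling on astrocyte markers the median of all genes moves to 2.69 and the reactive list, near the median gene here, falls to the other side of it.

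Metabolic genes were lower as groups with the scaling on all genes. Cholesterol synthesis, for which astrocytes are a main source in the adult brain, gave 18 lower and none higher of 23 genes (median -1.07), with 1 higher without cortex replicate 6. Mvd, of the mevalonate pathway, had 24.0, 36.7, 18.3, 17.2 and 18.5 CPM in hippocampus and 65.8, 83.1 and 139 CPM in cortex, and the sterol oxidase gene Msmo1 had 203, 346, 173, 182 and 179.5 CPM in hippocampus and 525, 692 and 1399 CPM in cortex. Replicate 2 was the highest in hippocampus for both, below every cortex library (fold changes -2.01 ± 0.32 and -1.89 ± 0.31 SE, adjusted p = 2.96e-05 and 4.2e-05). Of 16 genes of lipid transport and efflux, 3 were higher, 5 were lower and 8 were not called (median -0.15). Apoe, the main lipoprotein of astrocytes, had 3510.3, 7335, 3402, 5494 and 3962 CPM in hippocampus and 10791, 15978 and 54739 CPM in cortex (fold change -2.18 ± 0.43 SE, adjusted p = 0.00034). The lipoprotein receptor gene Vldlr had 142, 137, 133, 134 and 129 CPM in hippocampus and 27.5, 39.9 and 52.1 CPM in cortex, the most even of the genes that were higher (fold change 1.76 ± 0.27 SE, adjusted p = 2.14e-05). Abcg1, a sterol exporter, had 67.1, 51.9, 71.8, 33.2 and 39.9 CPM in hippocampus and 7.26, 13 and 21.1 CPM in cortex (fold change 1.93 ± 0.43 SE, adjusted p = 0.00101).

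Fatty acid oxidation genes were lower in 13 of 22 (median -0.91), glycolysis and lactate genes in 13 of 22 (median -0.79) and antioxidant genes in 11 of 22 (median -0.88). Acsl3, which activates fatty acids, had 263, 555, 192, 263 and 234 CPM in hippocampus and 887, 1032 and 1319 CPM in cortex (fold change -1.81 ± 0.33 SE, adjusted p = 0.000148). Tpi1, a glycolytic enzyme gene, had 213, 280, 181, 247 and 299 CPM in hippocampus and 501, 572 and 887 CPM in cortex (fold change -1.42 ± 0.26 SE, adjusted p = 0.000159). The peroxiredoxin gene Prdx6 had 463, 1076, 497, 643 and 651 CPM in hippocampus and 2052, 2751 and 5584 CPM in cortex (fold change -2.29 ± 0.36 SE, adjusted p = 2.83e-05). No oxidation or antioxidant gene was called higher, and the 2 glycolysis and lactate members that were, the lactate transporters Slc16a1 and Slc16a3, were fragile. The call of Slc16a1 was lost without hippocampus replicate 1, 2 or 3 or cortex replicate 2, 3 or 6 (adjusted p between 0.0502 and 0.0818), and that of Slc16a3 without hippocampus replicate 1, 2 or 3 or cortex replicate 2, 4, 5 or 6 (between 0.0515 and 0.138), so that none of the list was higher without hippocampus replicate 1, 2 or 3 or cortex replicate 2 or 6 and 1 was higher without cortex replicate 3, 4 or 5.

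The 13 mitochondrially encoded genes were all lower (median -1.53), also without cortex replicate 6 and without any other library. For mt-Cytb, the values were 1572, 2639.9, 3273, 3285 and 3142 CPM in hippocampus and 4729, 5976 and 22455 CPM in cortex (fold change -1.64 ± 0.39 SE, adjusted p = 0.00206). Nuclear respiratory chain genes were lower in 22 of 25 (median -1.29), and in 13 without cortex replicate 6. Cytosolic ribosomal protein genes were lower in 38 of 45 (median -1.14), but this count rested on single libraries: it was 4 without cortex replicate 6 and 24 without hippocampus replicate 4, and it was 16 with the 11 SC libraries alone. Their mean level in cortex replicate 6 was 7.94 on the log2 CPM scale, against 5.82 to 6.29 in the other cortex libraries, and that library also had the short transcripts given above. On HFHS none of the 45 was called. With counts corrected for transcript length, 38 of the 45 ribosomal protein genes were lower, and without cortex replicate 6 of SC and replicate 6 of HFHS together, 19 were. The part of that library in the ribosomal result was not tested further.

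Genes of the unfolded protein response, which enlarge the folding capacity of the endoplasmic reticulum, were higher in 9 of 16 and lower in none (median 0.56), with 1 lower without cortex replicate 1, 4 or 5. Fitted on the 11 SC libraries alone, 3 of the 16 were higher, and 6 were at the lowest with a library left out. Hspa5, the chaperone BiP, had 1427, 1181, 1036, 1888 and 1859 CPM in hippocampus and 623, 714 and 1027 CPM in cortex, and the disulfide isomerase gene Pdia4 had 239.9, 218, 219, 285 and 329.8 CPM in hippocampus and 94.9, 144 and 163 CPM in cortex. The groups did not overlap for either, and replicates 4 and 5 were the highest (fold changes 0.95 ± 0.21 and 0.90 ± 0.18 SE, adjusted p = 0.00111 and 0.00038). The same replicates had the highest choroid plexus sums, and the part of that epithelium was not tested. Interferon and antigen presentation genes gave 4 lower of 20, Ifit3, Psmb8, H2-K1 and B2m, a share not far above the 15.3% of all genes. The lower count was 2 without hippocampus replicate 1 or 3, and 1 when fitted on the 11 SC libraries alone. The calls of Ifit3 and Psmb8 were both lost without hippocampus replicate 1 or 3 (adjusted p between 0.0557 and 0.087). Without cortex replicate 4 or 6, 1 member was higher.

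Signalling pathways were mixed. Over all genes 15.4% were higher and 15.3% lower. Wnt genes had 10.7% and 28.6%, Notch and hedgehog genes 8.7% and 30.4%, and BMP and TGF-beta genes 14.3% and 25.0%. Of 28 Wnt genes, 8 were lower and 3 higher. The receptor gene Fzd2 had 5.09, 13.4, 2.49, 8.23 and 5.14 CPM in hippocampus and 45.4, 54.7 and 77.8 CPM in cortex (fold change -3.09 ± 0.49 SE, adjusted p = 3.01e-05), and the ligand gene Wnt7a had 3.69, 27.5, 1.68, 6.10 and 4.78 CPM in hippocampus and 41.1, 64.2 and 99.6 CPM in cortex (fold change -2.89 ± 0.69 SE, adjusted p = 0.00185). Sfrp2, a secreted Wnt inhibitor, and the ligand gene Wnt3 were higher without overlap (fold changes 2.88 ± 0.72 and 1.61 ± 0.40 SE, adjusted p = 0.00281 and 0.00302). Of 23 Notch and Sonic hedgehog genes, 7 were lower and 2 higher. The Notch target gene Hey1 had 20.9, 44.3, 26.4, 34.0 and 33.2 CPM in hippocampus and 75.1, 90.5 and 107 CPM in cortex (fold change -1.51 ± 0.25 SE, adjusted p = 4.12e-05). Hhip, which binds hedgehog ligands, had 117, 137, 143, 71.2 and 59.5 CPM in hippocampus and 10.9, 16.3 and 32.1 CPM in cortex (fold change 2.37 ± 0.47 SE, adjusted p = 0.000312). Both were without overlap, and Hhip was lower in hippocampus replicates 4 and 5 than in 1 to 3, as the myelin genes were. Of 28 BMP and TGF-beta genes, 4 were higher and 7 lower, and 3 lower without hippocampus replicate 1, 3 or 5 or without cortex replicate 2. Bmp4, a ligand, had 5.73, 2.83, 5.27, 14.6 and 9.41 CPM in hippocampus and 0.723, 0.861 and 2.74 CPM in cortex (fold change 2.63 ± 0.51 SE, adjusted p = 0.000272).

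Of 24 FGF and EGF genes, 7 were higher (29.2%) and 9 lower (37.5%). Sulf2, which trims heparan sulfate and so tunes growth factor signals, had 201, 146, 219.7, 119 and 134 CPM in hippocampus and 14.9, 27.2 and 53.7 CPM in cortex (fold change 2.44 ± 0.40 SE, adjusted p = 3.63e-05), and the neuregulin receptor gene Erbb4 had 12.4, 21.4, 14, 14.6 and 12.8 CPM in hippocampus and 2.31, 3.24 and 5.42 CPM in cortex (fold change 2.08 ± 0.37 SE, adjusted p = 0.000116). Fgf13 had 12.6, 13.3, 25.8, 22.4 and 25.5 CPM in hippocampus and 54.9, 91.7 and 114 CPM in cortex (fold change -2.10 ± 0.40 SE, adjusted p = 0.000248). Of 32 guidance genes, 8 were higher (25.0%) and 6 lower (18.8%), beside 15.4% and 15.3% of all genes. The repellent ligand gene Slit2 had 4.82, 16, 6.77, 29.5 and 16.2 CPM in hippocampus and 0.629, 1.31 and 2.27 CPM in cortex, without overlap (fold change 3.51 ± 0.46 SE, adjusted p = 2.26e-06). The ephrin gene Efna5 had 1.26, 1.22, 0.579, 2.06 and 1.93 CPM in hippocampus and 3.76, 5.51 and 6.10 CPM in cortex (fold change -1.87 ± 0.34 SE, adjusted p = 0.000125). Sema4a, a semaphorin gene, was lower as well (-2.56 ± 0.54 SE, adjusted p = 0.000651), while Sema3d, Sema6a and Sema5a were higher (fold changes 2.20 ± 0.47, 1.88 ± 0.45 and 1.22 ± 0.31 SE, adjusted p between 0.000688 and 0.0032).

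Collagen and basement membrane genes were higher in 8 of 27 (29.6%) and lower in 1 (3.7%), beside 15.4% and 15.3% of all genes. Without cortex replicate 2, 5 of the 27 were higher. The laminin gene Lamb1 had 17.9, 24.7, 18.5, 56.1 and 36.2 CPM in hippocampus and 1.25, 2.93 and 5.45 CPM in cortex, without overlap (fold change 3.31 ± 0.55 SE, adjusted p = 4.7e-05). The lower member was the laminin receptor gene Itga6 (-1.48 ± 0.39 SE, adjusted p = 0.00426). Among 29 genes of thyroid hormone, retinoid and steroid action, 11 were lower (37.9%) and 1 was higher (3.45%), with 2 higher without hippocampus replicate 3 and 4 without cortex replicate 4. Besides Crym, the group held Dio2, the enzyme that makes active thyroid hormone in astrocytes, with 5.35, 82.7, 11.2, 29.7 and 14.7 CPM in hippocampus and 96.8, 131 and 226 CPM in cortex (fold change -2.31 ± 0.59 SE, adjusted p = 0.00346). The higher one was Sgk1, a kinase that glucocorticoids induce, with 542, 309, 455, 1012 and 921 CPM in hippocampus and 39.4, 129 and 279 CPM in cortex (fold change 2.18 ± 0.45 SE, adjusted p = 0.000506). Imprinted genes gave 6 higher (30.0%) and 1 lower (5.0%) of 20, beside 15.4% and 15.3% of all genes, and none lower without cortex replicate 6. Mest and Igf2, the highest of them by fold change (2.57 ± 0.52 and 2.42 ± 0.53 SE, adjusted p = 0.000427 and 0.000984), had their lowest hippocampus value in replicate 3, as the choroid plexus markers did.

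The same region difference was measured on HFHS in libraries of other mice. There, 5222 of 21574 genes were called (24.2%), 2895 higher in hippocampus (13.4%) and 2327 lower (10.8%). With counts corrected for transcript length, the split on HFHS was 2634 higher and 3554 lower, and with scaling on astrocyte markers it was 18387 higher and 78 lower. Of all genes called on SC, 52.8% were also called on HFHS, and of those called on HFHS, 67.0% were also called on SC. Of these 3501 genes, 3499 had the same direction, and the exceptions were Arid3c and Gm43338, named after their values were seen. Among the 24 genes with the largest fold changes on SC, 21 were called in the same direction on HFHS. Crym was at -3.65 ± 0.45 there (SE, adjusted p = 7.32e-07), Chrdl1 at -4.04 ± 0.69 (adjusted p = 5.96e-05), Fosb at 5.40 ± 0.44 (adjusted p = 1.49e-09) and Trp73 at 2.86 ± 0.60 (adjusted p = 0.000699). Gfap was again without a call, at 0.02 ± 0.42 (SE, adjusted p = 0.984). The list counts on HFHS were 21 lower of 22 for astrocyte markers, 18 higher of 18 for ependymal markers, 9 higher of 12 for choroid plexus markers, 11 higher of 18 for oligodendrocyte markers, 18 higher of 20 for immediate early genes and 18 lower of 23 for cholesterol synthesis. Other lists had fewer calls there than on SC: 9 lower of 25 for respiratory chain genes, 9 lower of 13 for mitochondrially encoded genes, 5 lower of 16 for telencephalon factors, 6 lower of 22 for antioxidant genes, 1 higher of 32 for guidance genes and 3 higher of 27 for collagen and basement membrane genes. The reactive astrocyte list had 9 higher and 0 lower of 23 on HFHS (median 0.69), against 5 and 3 on SC (median 0.11). The ribosomal protein list, with 38 lower on SC, had none, and its median was -0.18 on HFHS, against -1.14 on SC. Of its 45 members, 17 had an unadjusted p under 0.05 in the test of the difference between diets described next, where none was called.

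Some genes with a large fold change on SC had a small one on HFHS, and 4 of them are given here, chosen after their values were seen. Oaf had 19.7, 7.23, 18.2, 3.24 and 29.7 CPM in hippocampus and 66.4, 173 and 374 CPM in cortex on SC, against 3.77, 6.70 and 92.9 CPM (lowest, median and highest) in hippocampus and 10.6, 13.7 and 86.2 CPM in cortex on HFHS. Its fold change was -3.70 ± 0.82 on SC (adjusted p = 0.00104) and -0.14 ± 0.66 on HFHS (adjusted p = 0.915). Gas1, a membrane protein of hedgehog signalling, was at -2.79 ± 0.65 on SC (adjusted p = 0.00165) and -0.01 ± 0.55 on HFHS (adjusted p = 0.994), Sox2 at -2.48 ± 0.52 and -0.42 ± 0.45 (adjusted p = 0.000628 and 0.538), and Lhx2 at -3.04 ± 0.52 and -1.08 ± 0.43 (adjusted p = 7.34e-05 and 0.0665). In each of these 4 genes, the values on HFHS differed less between regions than on SC, which is how they were chosen and is no further result. A test of the difference between the fold changes on both diets, however, called none of 21574 genes (0.0%). For these 4 genes its adjusted p lay between 0.463 and 0.465, and 2007 genes had an unadjusted p under 0.05. DESeq2 called 23 genes in that test and limma's voom 2. For the genes named here, edgeR's test does not show a region difference that depends on diet.

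**Figure D5:**
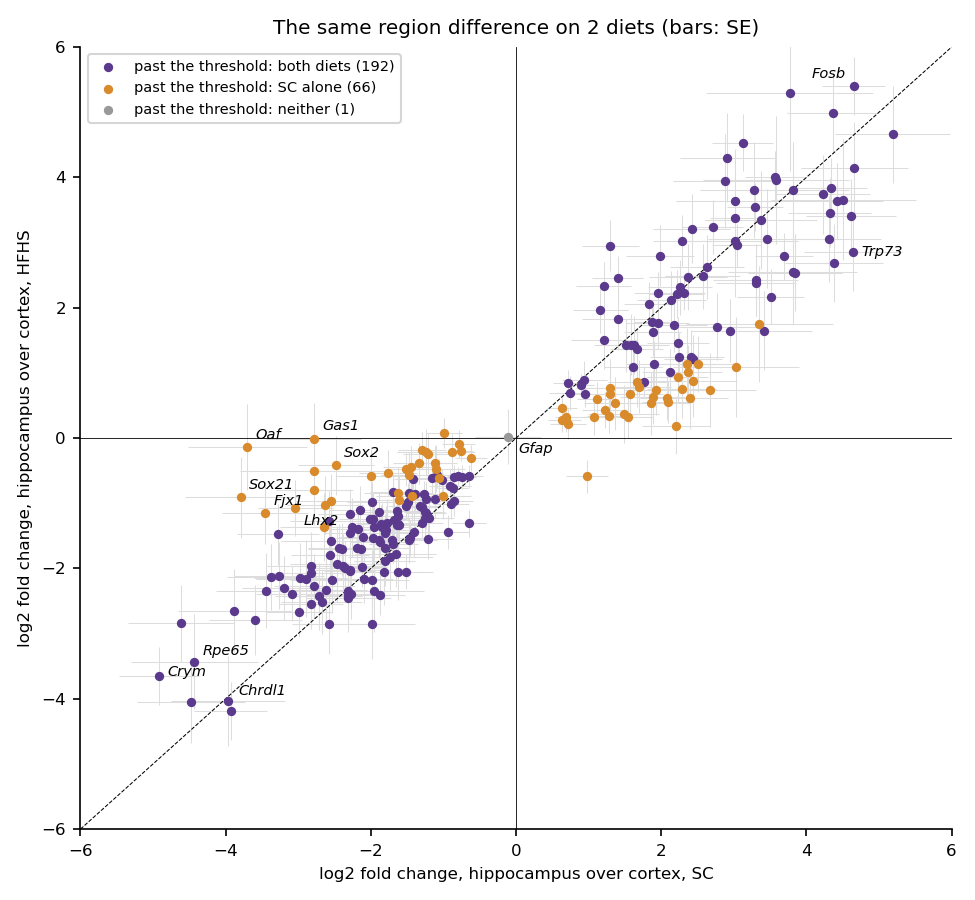
Log2 fold change of hippocampus over cortex on SC (x axis) and on HFHS (y axis) for the 259 genes named by rule, nearly all chosen for their call on SC, with SE bars and the line of equal values. Of them, 192 were called on both diets and 66 on SC alone, and Oaf, Gas1, Sox2, Sox21, Fjx1 and Lhx2 lie nearer 0 on HFHS.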

How the data were processed

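RNA of ACSA2-selected cells was sequenced in 35 libraries of 3 brain regions and 2 diets, each from a pool of 2 animals, with SMART-Seq v4, a kit that does not keep the strand, per the labels' protocols. Reads were checked with FastQC and quantified with Salmon on GRCm38, per the submitters' processing notes, with versions not given in the sources used here. The authors deposited estimated counts and TPM per transcript. Of 140948 transcripts, 139852 matched the GENCODE annotation and were summed to 54119 genes, and the 1096 others, with 0.214% to 0.535% of the counts, were left out. Gene sums were rounded to whole numbers. Without strand, reads of overlapping antisense genes cannot be told apart.

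All 35 libraries in 6 groups were fitted with edgeR 4.0.16 (quasi-likelihood test, TMM scaling, its filter on low counts, 29 residual degrees of freedom, R 4.3.3), and the Benjamini-Hochberg adjustment ran over 21574 genes. The region difference on SC, that on HFHS and the difference of both were tested, two-sided. The fit was tested on simulated data. Named genes are the 12 highest and 12 lowest fold changes among called genes at a mean of 10 CPM or more in the higher group, without clone or predicted names, up to 5 members of each list and direction with the smallest p, members of astrocyte lists that were higher, and Atp1b2, Gfap, Aqp4, Aldh1l1, Slc1a2 and Slc1a3. The 43 lists hold 815 genes, of which 810 were tested. The comparison, the lists and the rules were chosen with earlier results of these data known. Alternatives were other size factors, scaling on astrocyte markers, DESeq2 1.42.0, limma 3.58.1 with voom, no filter and a stricter one, the 11 SC libraries alone, counts from TPM, length offsets, a replicate block and each library left out, and, chosen after seeing the data, both cortex libraries with short transcripts left out.

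Hippocampus and cortex libraries share replicate numbers 1 to 5 on SC, but the labels do not say that a number marks shared animals. The deviations of same-numbered libraries from their group means correlated at 0.01 to 0.22, and 2 of the 5 correlations were under 0.1, so the numbers were not treated as pairs.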

Additional observations from a re-analysis of the deposited data

Results flagged for a closer look

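In 146 sets of 4 to 10 libraries, 6 held a library far from the rest of its group by Dixon's criterion, which chance gives in about 1 set in 20. The mean level of the ribosomal protein list was 7.94 (log2 CPM) in cortex SC replicate 6, against 5.82 to 6.29 in the other cortex libraries, and that of the mitochondrially encoded genes was 12.41 there, against 10.43 to 10.91. The same library, which had the shortest counted transcripts, had Cldn10 at 11.61 (log2 CPM), against 8.33 to 9.5 in the others. The synaptogenic and secreted factor list was at 6.37 in cortex SC replicate 2, against 5.76 to 5.93, and cholesterol synthesis at 6.31 in hippocampus SC replicate 2, against 5.57 to 5.77. These 2 libraries had the highest astrocyte marker sums of their groups, 20428 CPM in hippocampus and 60247 CPM in cortex. Ces1d was at -4.78 (log2 CPM) in cortex SC replicate 1, where it had no count, against -1.67 to -0.3 in the other cortex libraries.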

How the results depend on the processing

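Scaling on astrocyte markers moved the number of called genes to 17985 on SC and to 18465 on HFHS, against 6636 and 5222 and its shift was unequal between genes. Under the other alternatives the SC count lay between 5006 (the 11 libraries alone) and 7476 (DESeq2), and leaving out each library gave 5512 to 6776 on SC and 4291 to 5923 on HFHS. The difference between diets, with 0 genes called by edgeR, gave 23 with DESeq2 and 2 with voom (the cause was not tested), and 0 to 1 with a library left out, the 1 without hippocampus HFHS replicate 2. With the replicate number as a block, 6009 genes were called on SC and 5870 on HFHS. Of the lists, choroid plexus then had 6 of 12 higher and ribosomal proteins 11 of 45 lower. The labels give the numbers no shared source and not every correlation passed 0.1, so the samples were taken to share only a number, although 3 of the 5 hippocampus libraries correlated best with the cortex library of their own number, a hint from the data towards pairing. The fold change of Gfap relative to the median gene, which was not called, turned positive without cortex SC replicate 2 (0.11), cortex SC replicate 3 (0.04) or hippocampus SC replicate 1 (0.03), and its range with a library left out was -0.54 to 0.11. Relative to the median gene, none of the other named genes reversed under any alternative. The sign of the fold change itself did change for some with scaling on astrocyte markers, among them Aqp4 and Atp1b2. With scaling on astrocyte markers, 87 of 259 named genes were no longer called in their direction, and with the 11 libraries alone 17 were not. Of the list counts in each direction, 72 moved with scaling on astrocyte markers, by more than 1.5-fold or from or to 0, and 14 did not. Cholesterol synthesis then had 19 higher and 0 lower (median 1.51) and the respiratory chain 20 higher and 0 lower (median 1.43), where all genes had a median of 2.69. On those 11 libraries, reactive and interferon lists each had 1 member lower, BMP genes 2 higher and hippocampal neuron markers 3 lower. Values come from 5 and 6 pools per region. The sort columns differed by region and cannot be told apart from it. Oligodendrocyte, ependymal and choroid plexus RNA differed between libraries, and its part in the values was not tested.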
